A study of Mus musculus with 6 samples.

Results

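Mitosis genes encode the cyclins, kinases, spindle motors, kinetochore proteins, condensins and cytokinesis factors that divide a cell. The 54 members were chosen by symbol from this class, and all 54 were found among the 24452 gene symbols of the tissue libraries. The study measured gene expression by RNA-seq in small intestine of C57BL/6 mice at postnatal day 14. There were 3 libraries labelled Erk1/2 -/- (called labelled knockout here) and 3 labelled wild type. The series title asks what the ERK kinases, through negative feedback, contribute to the growth and upkeep of the gut after birth. The labels name no promoter or cell type that drives the deletion. They do not state that the 3 libraries of a group are 3 animals. Both sexes occur in each group, which takes at least 2 animals, so the spread behind each p-value may be technical in part.

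In the intestine, cell division takes place mostly in the crypts, where stem cells and their transit-amplifying daughters renew the epithelium. Mitosis is driven by CDK1 bound to cyclin B, which CDC25 phosphatases switch on. It ends when the anaphase-promoting complex, a ubiquitin ligase, marks cyclin B and securin for destruction. Transcripts of most of these genes build up late in the cell cycle under the transcription factors B-MYB and FOXM1, and such genes serve as markers of dividing cells in a tissue. In such bulk samples, more dividing cells and more RNA per dividing cell cannot be told apart.

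Many promoters of this class carry the cell cycle genes homology region, or CHR, with the letters TTTGAA, and CCAAT boxes that bind the factor NF-Y. A window from 250 bases before to 50 after the gene start was found for 44 of the 54 members in a RefSeq table of build GRCm38.p6. On either strand, TTTGAA was present in 32 of these 44 (72.7%), against 14.4% of the 11134 tested genes that had a window. CCAAT was present in 31 of the 44 (70.5%), against 42.2% of those tested genes, and both were present in 27 (61.4%), against 5.80%. A gene with more than 1 window was counted if any of them held the letters, and a match of one motif can share at most 1 letter with a match of the other. The last 120 bases before the RefSeq gene start are shown for 7 members because they set 3 members that rose in the libraries labelled knockout (Cdc20, Ube2c and Ccnb2) beside 4 that carry the same letters and did not pass the test (Cdk1, Kif11, Top2a and Mki67). They lie at chr4:118437344-118437463 (Cdc20, minus strand), chr2:164769809-164769928 (Ube2c, plus strand), chr9:70421555-70421674 (Ccnb2, minus strand), chr10:69352913-69353032 (Cdk1, minus strand), chr19:37376262-37376381 (Kif11, plus strand), chr11:99024190-99024309 (Top2a, minus strand) and chr7:135716380-135716499 (Mki67, minus strand). Capitals mark TTTGAA and CCAAT or, on the other strand, TTCAAA and ATTGG.
Cdc20: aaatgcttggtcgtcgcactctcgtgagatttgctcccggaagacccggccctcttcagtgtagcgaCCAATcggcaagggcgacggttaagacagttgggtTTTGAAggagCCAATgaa
Ube2c: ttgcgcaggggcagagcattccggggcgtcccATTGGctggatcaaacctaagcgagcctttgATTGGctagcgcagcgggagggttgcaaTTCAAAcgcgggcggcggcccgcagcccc
Ccnb2: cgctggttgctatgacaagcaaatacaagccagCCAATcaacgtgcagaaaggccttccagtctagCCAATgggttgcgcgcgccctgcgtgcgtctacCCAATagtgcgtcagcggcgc
Cdk1: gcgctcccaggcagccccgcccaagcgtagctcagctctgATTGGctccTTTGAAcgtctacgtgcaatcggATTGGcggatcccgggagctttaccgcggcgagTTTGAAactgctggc
Kif11: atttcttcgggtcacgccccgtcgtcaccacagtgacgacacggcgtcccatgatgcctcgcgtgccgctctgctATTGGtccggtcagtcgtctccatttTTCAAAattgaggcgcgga
Top2a: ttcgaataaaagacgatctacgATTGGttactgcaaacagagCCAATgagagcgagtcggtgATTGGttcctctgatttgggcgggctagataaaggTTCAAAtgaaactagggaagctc
Mki67: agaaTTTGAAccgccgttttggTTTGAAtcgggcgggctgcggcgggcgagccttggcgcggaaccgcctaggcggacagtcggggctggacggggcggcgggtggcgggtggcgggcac
Ccnb2 shows 3 evenly placed CCAAT boxes here, and its TTTGAA nearest the start lies just downstream of the printed stretch. Mki67 shows TTTGAA but no CCAAT here, and its CCAAT matches lie upstream of the printed stretch. TTTGAA was in 8 of the 11 members that rose and had a window, and in 24 of the 33 that did not pass, 72.7% of each. CCAAT was in 9 of those 11 (81.8%) and in 22 of those 33 (66.7%), and both were in 8 (72.7%) and 19 (57.6%). These shares are a description, with no test of their difference.

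The deposited values are normalised counts: each library's reads per gene were scaled by 1 factor and rounded. They summed to 13641468 to 17153570 per library, and undoing the scaling gave an estimated 12529655 to 16285576 reads. Mapk3, encoding ERK1, did not bear out the labels. It had 3363, 2280 and 2734 in labelled knockout 1 to 3 and 3142, 2788 and 2004 in wild type 1 to 3. The groups overlapped (log2 fold change 0.09 ± 0.22, limma adjusted p = 0.819), so every direction below is that of the libraries labelled knockout. The epithelial markers Epcam, Cdh1, Vil1, Krt8 and Krt18 were all detected, with sums of 115325 to 122244 in labelled knockout libraries and 66048 to 83493 in wild type libraries. Xist and Ddx3y marked labelled knockout 1 and wild type 1 and 2 as male and the other 3 libraries as female. A segment score, which is high where 10 proximal genes outweigh 4 ileal ones on the log2 scale, was 1.48, 5.77 and 5.78 in labelled knockout 1 to 3 and 4.82, 4.28 and 0.70 in wild type 1 to 3, so labelled knockout 1 and wild type 3 stood apart from the rest.

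Of the 54 members, all of which passed the filter on low values, 13 rose in the libraries labelled knockout at a limma adjusted p under 0.05 and 41 did not pass. They were survivin, cyclin B1 and B2, Aurora B and other late cell cycle genes (Birc5, Cdca3, Cdca8, Ube2c, Ccnb2, Tacc3, Cenpa, Cdc20, Racgap1, Kif4, Cdc25c, Ccnb1 and Aurkb). Among all 14686 genes tested, 4.85% were called higher, compared with 24.1% of the members. No member was called lower, where 3.94% of all genes were. At an unadjusted limma p under 0.05, 27 members were higher and 0 lower, against 2322 higher and 2133 lower of all 14686 genes. The 13 rises ran from 0.61 for Aurkb to 1.11 for Cdc25c on the log2 scale, or 1.53-fold to 2.16-fold, with limma adjusted p-values of 0.0146 to 0.0466. The median log2 fold change of the members was 0.42, against -0.01 for all genes tested. In 30 members every labelled knockout library lay above every wild type library, 55.6% of them, as did 19.8% of all genes tested. No member had every labelled knockout library below every wild type library, a pattern of 17.8% of all genes. The fold change was positive for 51 of the 54, against 49.1% of all genes. The sum over the 54 members was 19813, 22936 and 21366 normalised counts in labelled knockout 1 to 3, against 15307, 15406 and 15832 in wild type 1 to 3.

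**Figure D1:**
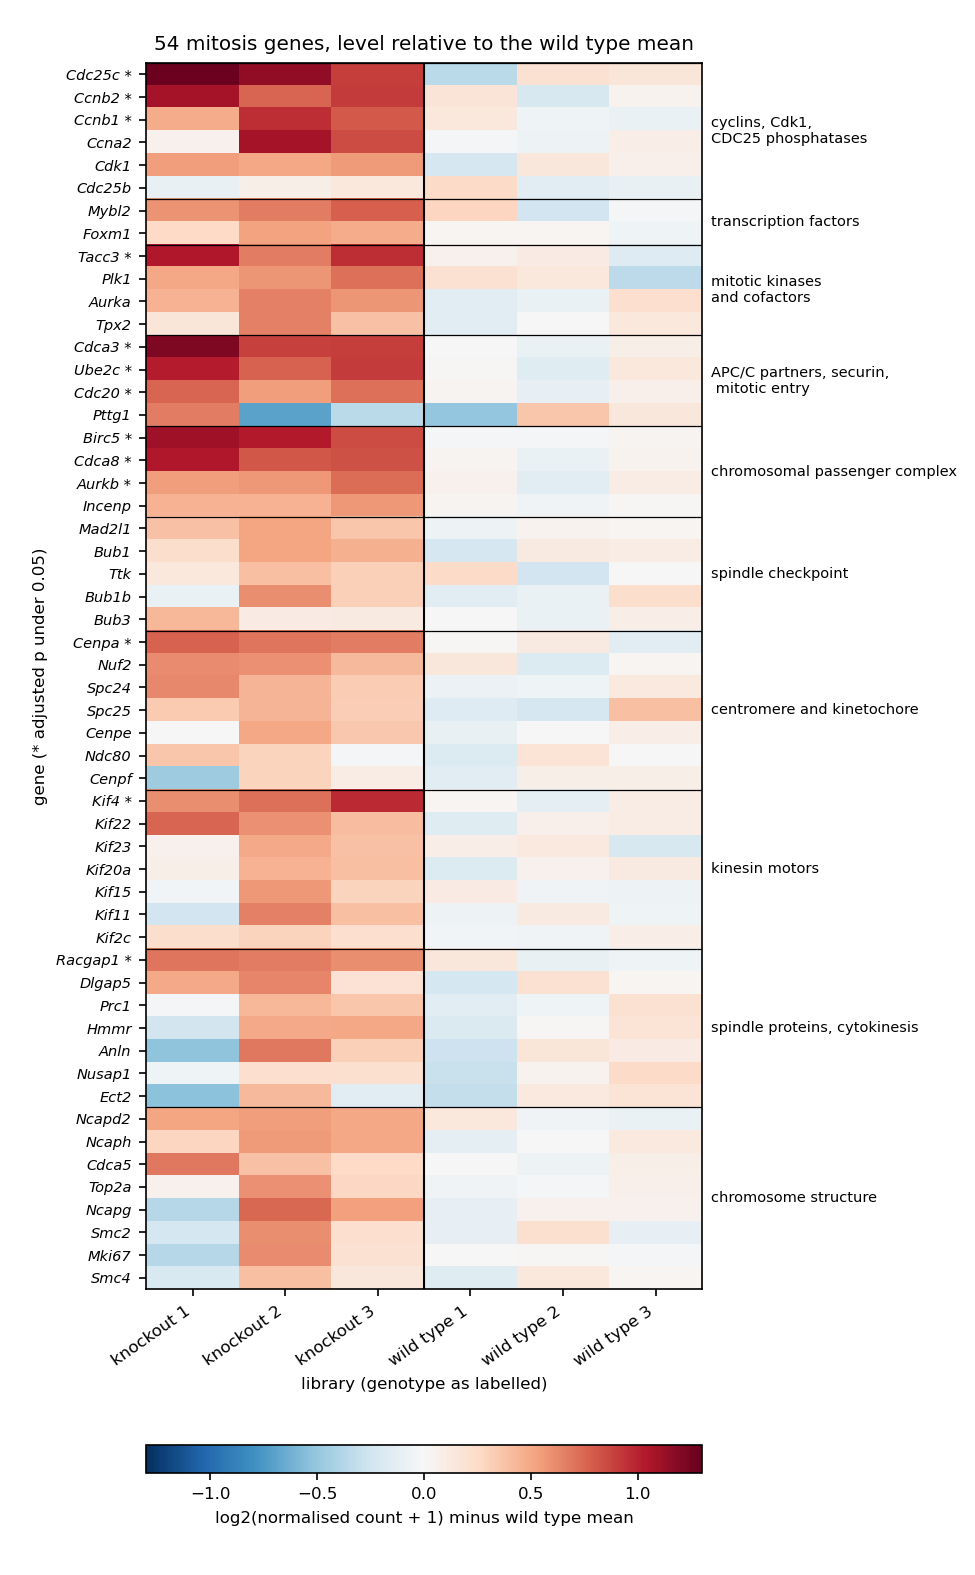
Level of each of the 54 mitosis genes (rows, grouped by role) in each library (columns), as log2(normalised count + 1) minus the mean of the 3 wild type libraries. Colour runs from blue (lower) to red (higher) and an asterisk marks a limma adjusted p under 0.05. The 13 marked genes are red in all 3 labelled knockout columns, while several chromosome structure and cytokinesis genes are blue in labelled knockout 1.

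The count of calls leaned on the libraries used. Dropping labelled knockout 1 left 22 members called, dropping labelled knockout 2 left 6, and dropping labelled knockout 3 left 0. Dropping wild type 1 or wild type 2 left 0 in each case, and dropping wild type 3 left 3 (Birc5, Cdca3 and Ube2c). In these 6 limma fits, between 20 and 40 members were still higher at an unadjusted p under 0.05. The share of all genes at that level was not taken in these fits. The calls among all genes moved with those of the members. There were 26 higher and 2 lower without labelled knockout 3, and 1546 higher and 1452 lower without labelled knockout 1. Without labelled knockout 1, 2 and 3 in turn, 10.6%, 2.22% and 0.179% of all genes were called higher. Without wild type 1, 2 and 3 in turn, the share was 0.492%, 0.388% and 1.86%. With sex as a covariate, an alternative chosen after seeing the data, 4 members were called (Birc5, Cdca3, Cdca8 and Tacc3), with 1.91% of all genes called higher. Within the male libraries (1 labelled knockout against 2 wild type) the median log2 difference of the 54 members was 0.37, and within the female libraries (2 against 1) it was 0.42. Within the libraries of low segment score (1 against 1) it was 0.33, and within those of high score (2 against 2) it was 0.52, with medians of all genes between -0.01 and 0.01. The difference was positive for 42 of the 54 within male, 50 within female, 36 within low-score and 53 within high-score libraries. Of all genes, 49.5% to 50.4% were positive in these sets. No set matched both sex and segment score. The male and the female set each compared libraries of unlike segment score. The low-score and the high-score set each compared libraries of unlike sex.

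Among the cyclins, CDK1 and its activating phosphatases, 3 of 6 members rose and the rest did not pass. Ccnb2, the cyclin B2 gene (chromosome 9, 70407692 to 70421547, minus strand, GRCm38), had 569, 454 and 504 normalised counts in labelled knockout 1 to 3, against 302, 232 and 277 in wild type 1 to 3. Its log2 fold change was 0.91 ± 0.16 (SE; limma adjusted p = 0.0259). Every labelled knockout value was above every wild type value. Ccnb1 (chromosome 13, 100778650 to 100786570, minus strand), encoding cyclin B1, the main mitotic partner of CDK1, had 325, 453 and 405 in labelled knockout libraries and 256, 224 and 219 in wild type libraries. It rose 1.68-fold (limma adjusted p = 0.0445). Cdc25c, the phosphatase that activates CDK1 at mitotic entry, had the lowest wild type level per kilobase of exon of the 54. It had normalised counts of 73, 67 and 56 in labelled knockout libraries and 23, 34 and 33 in wild type libraries. Its rise was the largest of the 54, at 1.11 ± 0.24 on the log2 scale (limma adjusted p = 0.0399), and 12.7% of its exon bases lie under another annotated gene on the opposite strand. Pseudogenes named Ccnb1-ps and Ccnb2-ps are annotated, and reads of these near-copies could have been split, so the 2 cyclin values are uncertain to that extent.

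Cdk1, the kinase gene itself (chromosome 10, 69335146 to 69352938, minus strand), had 443, 429 and 444 in labelled knockout libraries and 260, 337 and 318 in wild type libraries. The groups did not overlap, but the log2 fold change of 0.53 ± 0.15 did not pass (limma adjusted p = 0.0681). Ccna2, encoding cyclin A2, which acts from S phase to early mitosis, had 370, 758 and 642 in labelled knockout libraries and 352, 340 and 379 in wild type libraries. Labelled knockout 1 lay within the wild type range while the other 2 were far above it, and the limma adjusted p was 0.149. Cdc25b, the phosphatase that starts CDK1 activation at the centrosome, had 265, 299 and 312 in labelled knockout libraries and 337, 256 and 266 in wild type libraries. Its groups overlapped, with a log2 fold change of 0.04 ± 0.16 that was negative with upper-quartile factors, library totals, the segment score as a covariate or the length and GC correction described below.

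Of the 4 genes tied to the anaphase-promoting complex and mitotic entry, 3 rose. Cdc20 (chromosome 4, 118432901 to 118437352, minus strand), the activator of the complex at the metaphase to anaphase transition, had 773, 665 and 748 in labelled knockout libraries and 468, 425 and 477 in wild type libraries. Its log2 fold change was 0.67 ± 0.13 (limma adjusted p = 0.0322). Per kilobase of exon it was the most abundant member, at 390 normalised counts in labelled knockout libraries and 244 in wild type libraries. Ube2c (chromosome 2, 164769898 to 164778822, plus strand), the ubiquitin-conjugating enzyme that works with the complex, had 791, 664 and 735 in labelled knockout libraries and 395, 351 and 430 in wild type libraries (0.90 ± 0.14 log2 fold change, limma adjusted p = 0.0210). Ube2c shares 22.8% of its exon bases with Tnnc2 on the opposite strand, and Tnnc2 was at 3 or less in every library. Cdca3, a trigger of mitotic entry (chromosome 6, 124829547 to 124833701, plus strand), had 717, 571 and 576 in labelled knockout libraries and 310, 291 and 325 in wild type libraries, 2.00-fold higher (limma adjusted p = 0.0182).

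Pttg1, encoding securin, the inhibitor of separase that this complex destroys, was the fourth. It had 232, 90 and 115 in labelled knockout libraries and 103, 188 and 162 in wild type libraries. Labelled knockout 1 was above and labelled knockout 2 below all wild type libraries, the widest ratio of highest to lowest labelled knockout library of the 54 members. With a log2 fold change of -0.13 ± 0.39 it did not pass, and that value was positive with the segment score or sex as a covariate.

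The chromosomal passenger complex, which corrects kinetochore attachments and later starts cytokinesis, had 3 of its 4 members higher and the groups apart in all 4. Birc5, encoding its subunit survivin (chromosome 11, 117849251 to 117855743, plus strand), had 499, 476 and 419 in labelled knockout libraries and 229, 229 and 238 in wild type libraries. Its means were 465 ± 41.2 and 232 ± 5.20 (SD, n = 3 each), and it had the lowest limma adjusted p of the 54, 0.0146. Cdca8, encoding borealin (chromosome 4, 124918465 to 124939311, minus strand), had 524, 445 and 451 in labelled knockout libraries and 261, 239 and 263 in wild type libraries. It rose 1.85-fold (limma adjusted p = 0.0200). Aurkb, the kinase of the complex (chromosome 11, 69045647 to 69051664, plus strand), had 363, 368 and 414 in labelled knockout libraries and 259, 225 and 266 in wild type libraries. It rose 1.53-fold (limma adjusted p = 0.0466), and each labelled knockout value lay above each wild type value. Incenp, the scaffold that binds the kinase, had 807, 805 and 870 in labelled knockout libraries and 601, 568 and 595 in wild type libraries, and missed the threshold (limma adjusted p = 0.0511).

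Mitotic kinases with their spindle cofactors had the groups apart in 4 of 4 members and 1 call. Tacc3, a spindle microtubule protein recruited by Aurora A (chromosome 5, 33658128 to 33678995, plus strand), rose, with 512, 395 and 486 in labelled knockout libraries and 259, 269 and 222 in wild type libraries (log2 fold change 0.89 ± 0.16, limma adjusted p = 0.0266). Plk1, the polo kinase of mitotic entry and spindle assembly, had 577, 607 and 667 in labelled knockout libraries and 468, 446 and 322 in wild type libraries, and its limma adjusted p was 0.0799. Aurka, encoding Aurora A, had 215, 248 and 234 in labelled knockout libraries and 143, 148 and 183 in wild type libraries (limma adjusted p = 0.0734). For Tpx2, its activator on the spindle, the log2 fold change was 0.40 ± 0.18.

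The 2 transcription factors of this programme had positive fold changes that did not pass, although both had an unadjusted p under 0.05. Mybl2, encoding B-MYB, had 297, 314 and 339 in labelled knockout libraries and 240, 166 and 195 in wild type libraries (limma adjusted p = 0.0599). Foxm1 had 288, 344 and 335 in labelled knockout libraries and 245, 245 and 230 in wild type libraries (limma adjusted p = 0.101). In both genes the groups did not overlap.

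None of the 5 spindle checkpoint genes was called by limma and 1, Mad2l1, had an unadjusted p under 0.05. All 5 fold changes were positive, from 0.22 to 0.41 on the log2 scale. Mad2l1, whose product holds CDC20 inactive until chromosomes are attached, had 210, 231 and 207 in labelled knockout libraries and 154, 167 and 164 in wild type libraries (limma adjusted p = 0.103). Bub3, which carries the checkpoint kinase to kinetochores, had 1135, 905 and 910 in labelled knockout libraries and 838, 793 and 895 in wild type libraries. The remaining checkpoint genes, Bub1, Bub1b and Ttk, had log2 fold changes of 0.40, 0.28 and 0.28.

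Among 7 centromere and kinetochore genes, Cenpa (chromosome 5, 30666777 to 30674830, plus strand) passed the test and rose. It encodes the histone H3 variant that marks centromeres, and had 413, 394 and 384 in labelled knockout libraries and 245, 263 and 220 in wild type libraries (log2 fold change 0.71 ± 0.14, limma adjusted p = 0.0303). The 4 subunits of the NDC80 complex, which grips microtubules, had log2 fold changes of 0.54 for Nuf2, 0.46 for Spc24, 0.37 for Spc25 and 0.21 for Ndc80. Cenpe, a kinetochore motor, had 0.28 ± 0.18, and Cenpf, a large kinetochore protein, had -0.03 ± 0.22. Cenpf stood at 204, 342 and 300 in labelled knockout libraries and 253, 296 and 295 in wild type libraries, with labelled knockout 1 below all of the wild type libraries, and its fold change was positive with the length and GC correction.

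Kif4, a motor that organises the central spindle and binds chromosome arms (chromosome X, 100625737 to 100727214, plus strand), was called among 7 kinesin genes. It had 221, 239 and 285 in labelled knockout libraries and 148, 133 and 155 in wild type libraries, and rose 1.70-fold (limma adjusted p = 0.0382). A pseudogene Kif4-ps is annotated, and 15.1% of the exon bases of Kif4 lie under Pdzd11 on the opposite strand, with 398, 293 and 315 for Pdzd11 in labelled knockout libraries and 253, 273 and 253 in wild type libraries. Reads from such opposite-strand partners cannot be told apart if counting ignored strand. Kif11, the motor that pushes spindle poles apart, had 264, 495 and 411 in labelled knockout libraries and 300, 341 and 303 in wild type libraries. Its labelled knockout values lay on both sides of the wild type range. The other 5 motor genes, Kif22, Kif23, Kif20a, Kif15 and Kif2c, had log2 fold changes between 0.24 and 0.58.

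Spindle proteins and cytokinesis genes gave 1 call in 7. Racgap1, which positions the cleavage furrow (chromosome 15, 99620496 to 99651656, minus strand), had 549, 540 and 516 in labelled knockout libraries and 376, 318 and 326 in wild type libraries (log2 fold change 0.66 ± 0.13, limma adjusted p = 0.0348). Ect2, the exchange factor that RACGAP1 brings to the furrow, had 117, 228 and 153 in labelled knockout libraries and 137, 185 and 192 in wild type libraries. The groups of Ect2 overlapped at a log2 fold change of -0.08 ± 0.27, which was positive with the length and GC correction. Anln, encoding the furrow protein anillin, had 136, 317 and 244 in labelled knockout libraries and 163, 219 and 212 in wild type libraries. Nusap1, Hmmr, Dlgap5 and Prc1, which bundle or bind spindle microtubules, had log2 fold changes from 0.12 to 0.44.

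None of the 8 chromosome structure genes was called by limma, 3 (Ncapd2, Ncaph and Cdca5) had an unadjusted p under 0.05, and all 8 fold changes were positive. Mki67, encoding the Ki-67 protein that coats mitotic chromosomes, had 1070, 2110 and 1578 in labelled knockout libraries and 1387, 1395 and 1358 in wild type libraries. The wild type values were nearly equal, whereas labelled knockout 2 was 1.97 times labelled knockout 1. Top2a, the topoisomerase that untangles sister DNA, had 1147, 1663 and 1334 in labelled knockout libraries and 1069, 1084 and 1159 in wild type libraries. The condensin gene Ncapd2 came nearest to a call, with 1070, 1091 and 1058 in labelled knockout libraries and 821, 724 and 704 in wild type libraries (limma adjusted p = 0.0501). The core condensin genes Smc2 and Smc4 had log2 fold changes of 0.20 ± 0.24 and 0.12 ± 0.19, Ncapg had 0.30 ± 0.30 and Ncaph 0.45 ± 0.15. Cdca5, encoding the cohesion protector sororin, had 0.44 ± 0.18. With library totals as scaling, which moved the median of all genes to -0.19, the fold changes of Mki67, Smc4, Anln, Nusap1 and Cdc25b turned negative and 46 of the 54 stayed positive.

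**Figure D2:**
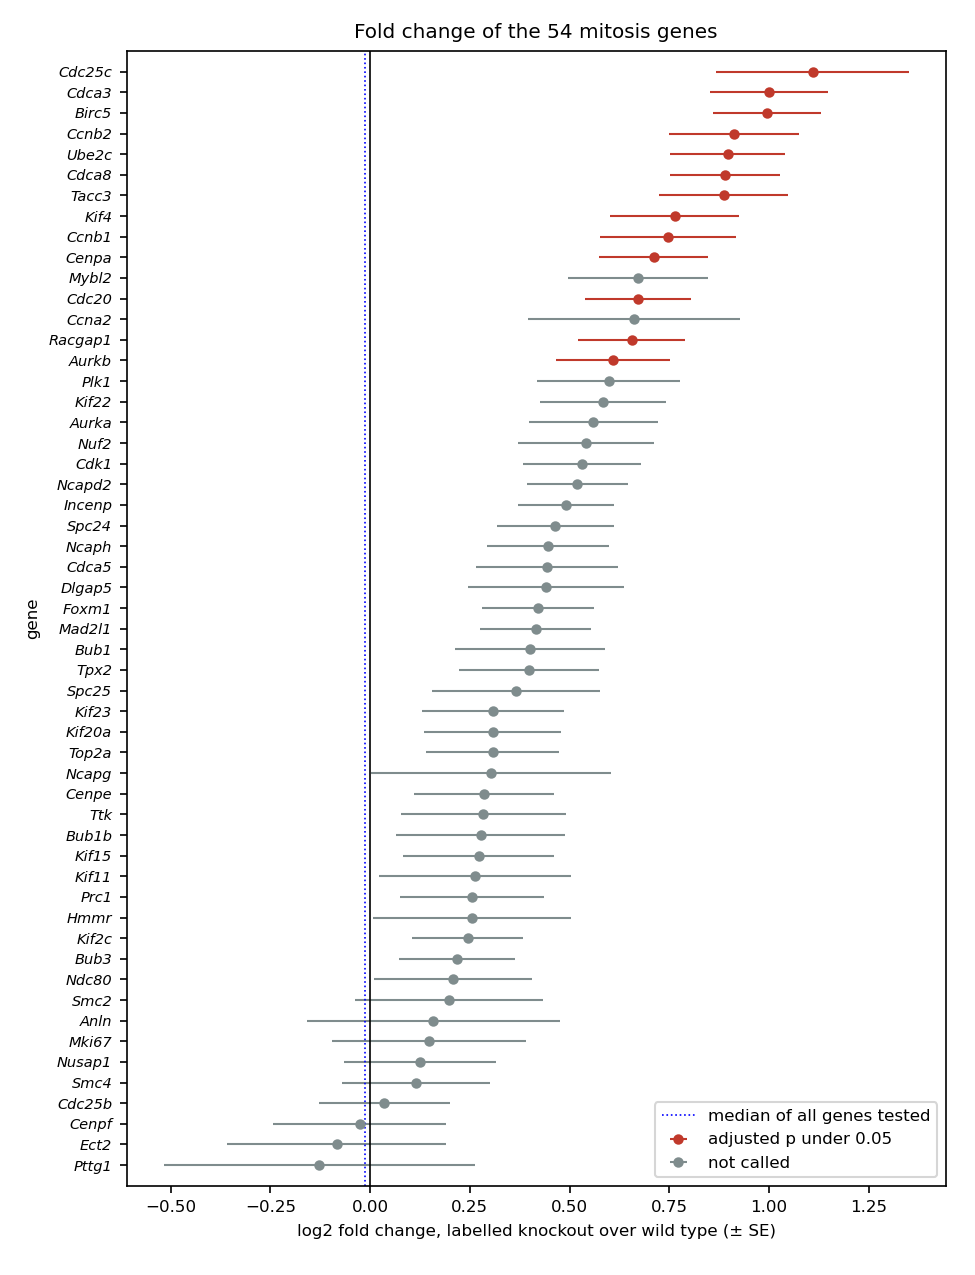
Log2 fold change of the 54 mitosis genes, labelled knockout over wild type, with its standard error from limma (3 libraries per group). Red points passed at an adjusted p under 0.05, and the dotted line is the median of all genes tested, -0.01. The 13 red points lie between 0.61 and 1.11, and 3 of the 54 points (Cenpf, Ect2 and Pttg1) are below 0. With library totals as scaling 5 more members are below 0, and with the length and GC correction Cenpf and Ect2 are above it.

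The members differed most among themselves in labelled knockout 1. There, 33 of the 54 lay above all wild type libraries and 9 below all of them. In labelled knockout 2, 51 lay above all wild type libraries and 1, Pttg1, below them, and in labelled knockout 3, 47 lay above and 0 below. Among the labelled knockout libraries, labelled knockout 1 was the highest for 10 of the 13 called members and the lowest for 30 of all 54. The shares of all genes in these positions were not taken, so these counts cannot be called particular to the members. For all genes tested, the median level relative to wild type was 0.004, 0.020 and -0.004 in labelled knockout 1 to 3. The ratio of labelled knockout 2 to labelled knockout 1 ran from 0.39 for Pttg1 to 2.33 for Anln.

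This difference followed transcript length, a property that did not enter the choice of members. The length used was that of the longest protein-coding transcript in the GENCODE vM21 annotation of GRCm38, with a median of 3285 bases over the members. Across the 54 members, Spearman's rho between length and the level relative to the wild type mean was -0.66 in labelled knockout 1, -0.10 in labelled knockout 2 and -0.35 in labelled knockout 3. It was -0.16, 0.33 and -0.18 in wild type 1 to 3. These are descriptions across genes of the same libraries. All genes tested showed the same order, with -0.54, -0.01 and -0.17 in labelled knockout 1 to 3 over 13698 genes with a length, and 0.05, 0.21 and -0.19 in wild type 1 to 3.

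The 27 members with transcripts up to the median length had a median log2 level relative to wild type of 0.61, 0.58 and 0.57 in labelled knockout 1 to 3. For the 27 longer members it was 0.05, 0.54 and 0.36. Shorter members thus stood at a like height in all 3 labelled knockout libraries, and longer members were near the wild type level in labelled knockout 1. For all genes tested, the medians in labelled knockout 1 were 0.34 for those up to 3285 bases and -0.38 for the longer ones, and in labelled knockout 2 they were 0.03 and 0.02. Calls fell the same way: 11 of the 27 shorter and 2 of the 27 longer members (Birc5 and Kif4) rose, while 7.35% of shorter and 2.31% of longer genes tested were called higher.

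**Figure D3:**
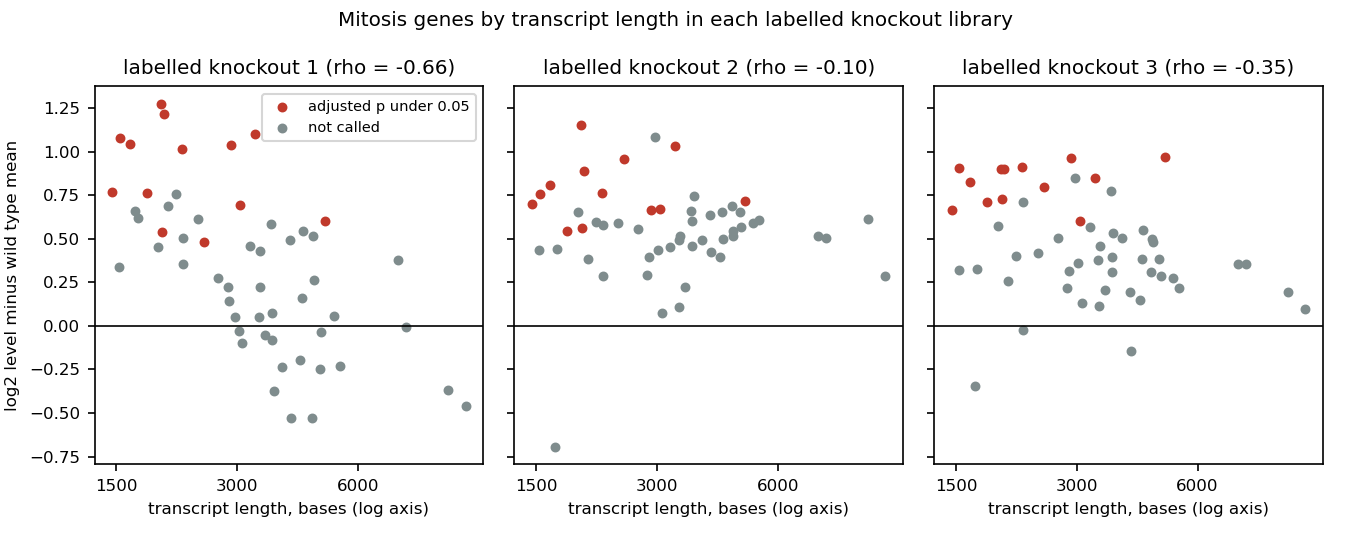
Transcript length (horizontal, log axis, bases) and level relative to the wild type mean (vertical, log2) of the 54 mitosis genes in labelled knockout 1, 2 and 3. Red points passed at a limma adjusted p under 0.05. The points slope downwards in labelled knockout 1 (rho -0.66) and lie mostly at one height in labelled knockout 2 (rho -0.10).

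Transcript GC content moved with the fold change too, with a rho of 0.56 across the members and of 0.10 across all genes with a length. By library, the rho of GC across the members was 0.58, 0.20 and 0.47 in labelled knockout 1 to 3. It was 0.44, -0.38 and -0.10 in wild type 1 to 3. Length and GC were not separated. When each library was centred within bins of transcript length and then of GC, an alternative chosen after seeing the data, 19 members were called higher, 35.2% against 7.99% of the 13698 genes tested. The median log2 fold change of the members was then 0.46. The genes gained were Top2a, Mki67, Kif15, Cenpe, Foxm1, Mybl2, Incenp and Ncapd2, and those lost were Aurkb and Cenpa.

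Other lists of genes of dividing cells were mostly positive too. Of 92 further mitosis genes tested, 69 had positive fold changes with a median of 0.28, but 3 rose (3.26%, below the 4.85% of all genes). In 35 of the 92 (38.0%) every labelled knockout library was above every wild type library. Those called were Cenpw, a centromere histone-fold protein (1.08 ± 0.25), Trip13, which resets the checkpoint protein MAD2 (0.81 ± 0.16), and Cks2, a CDK1 cofactor (0.70 ± 0.17). Wee1, the kinase that holds CDK1 inactive, was the one gene of these 92 below 0 at an unadjusted p under 0.05, at -0.74 ± 0.21 (limma adjusted p = 0.0739). Of 48 DNA replication genes, 6 rose (12.5%) and 43 were positive, with a median of 0.33. They were led by Mcm10, a DNA replication factor (0.81 ± 0.14, limma adjusted p = 0.0244), and Rrm2, a ribonucleotide reductase subunit. Rrm2 had 322, 531 and 403 in labelled knockout libraries and 186, 203 and 192 in wild type libraries. Fen1, a flap endonuclease, had 0.61 ± 0.13 and Ccne1, encoding cyclin E1, 0.71 ± 0.15.

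Regulators that act before S phase were centred near 0. Of 34 G1 cyclins, CDK inhibitors, pocket proteins and related factors tested, 2 rose (5.88%) and 1 fell, and the median was -0.07. Cdkn2b, encoding the CDK4 and CDK6 inhibitor p15, rose, with 1603, 1420 and 1836 in labelled knockout libraries and 723, 802 and 836 in wild type libraries (limma adjusted p = 0.0172). E2f2, an activating transcription factor of S phase genes, rose as well, with 887, 785 and 758 in labelled knockout libraries and 403, 388 and 575 in wild type libraries (limma adjusted p = 0.0410). E2f8, a repressor of such genes, fell, with 355, 342 and 298 in labelled knockout libraries and 554, 619 and 607 in wild type libraries (limma adjusted p = 0.0210). Ccnd1, the cyclin D1 gene, had a log2 fold change of 0.67 and did not pass (limma adjusted p = 0.0574).

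**Figure D4:**
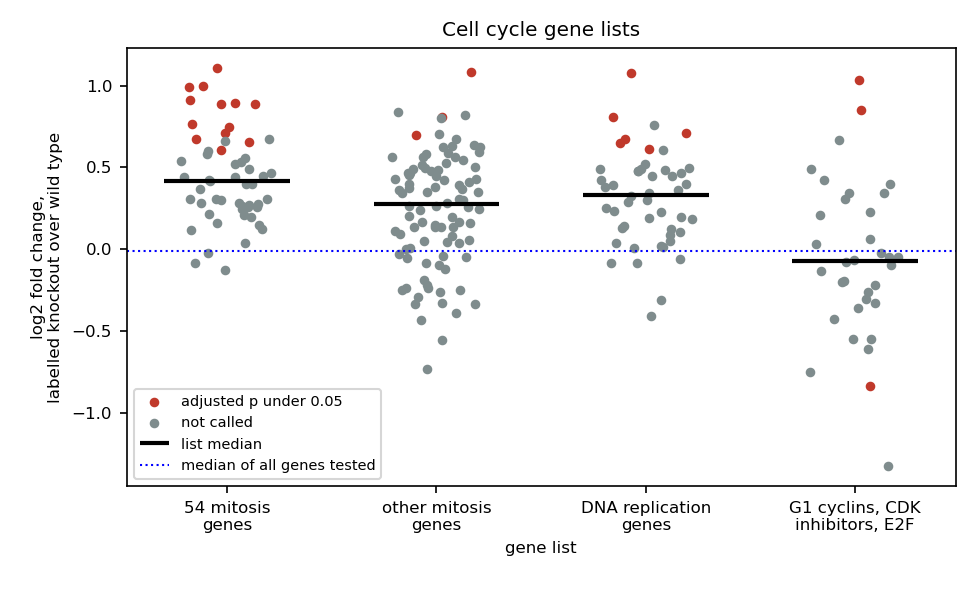
Log2 fold change, labelled knockout over wild type, of every tested gene in 4 cell cycle lists, with the list median as a bar and the median of all genes tested, -0.01, as a dotted line. Red points passed at a limma adjusted p under 0.05. The medians are 0.42 for the 54 mitosis genes, 0.28 for other mitosis genes and 0.33 for DNA replication genes. For the list of G1 regulators and related factors it is -0.07. With library totals as scaling the median of the 54 is 0.24.

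Markers of the cell types that could hold these transcripts moved in several directions beside them. The 4 stem cell markers Lgr5, Olfm4, Ascl2 and Smoc2 gave no limma call, with Lgr5 lower and Smoc2 higher at an unadjusted p under 0.05, and a median of -0.18. Their sums were 3961, 5853 and 4634 in labelled knockout libraries and 5282, 4909 and 5469 in wild type libraries. Krt8, a keratin of the gut epithelium, rose by 1.28 ± 0.20, and all 5 epithelial markers were positive. Paneth cell markers rose in 2 of 4 cases (Mmp7 and Itln1), with sums of 13287 to 20880 in labelled knockout libraries and 2146 to 9407 in wild type libraries. The 4 goblet cell markers gave no limma call, with 2 higher at an unadjusted p under 0.05, and summed to 74855 to 109109 in labelled knockout libraries and 40568 to 61794 in wild type libraries. Of 6 enterocyte markers, 1 fell (Lct), while 4 had positive and 2 negative fold changes, with a median of 0.34. Fabp1 was higher at an unadjusted p under 0.05 with the groups apart, at 0.89 ± 0.22 (limma adjusted p = 0.0543). The list summed to 983337 to 1878555 in labelled knockout libraries and 1394045 to 1648391 in wild type libraries. Apoa4 alone had 655615 to 1332120 in labelled knockout libraries and 1029973 to 1302781 in wild type libraries.

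Markers of cells outside the epithelium went both ways. The B cell markers Cd79a and Ms4a1 fell, with 11, 23 and 20 for Cd79a in labelled knockout libraries and 104, 130 and 153 in wild type libraries. Pax5, a defining B cell factor, was at 0 in all 3 labelled knockout libraries. All 3 endothelial markers fell, with sums of 2008 to 2139 in labelled knockout libraries and 3329 to 3839 in wild type libraries. The neutrophil markers S100a8 and S100a9 rose. Ly6g, too low to be tested, had 11, 5 and 3 in labelled knockout libraries and 0, 0 and 1 in wild type libraries, with the groups apart, and Elane and Mpo stayed at 5 or less in every library. Alas2, the heme synthesis enzyme of red cell precursors, rose by 1.58 ± 0.21 on the log2 scale with Hba-a1 and Hbb-bs at 0 throughout. Of 4 macrophage markers 1 fell (Adgre1), with sums of 2609 to 7136 in labelled knockout libraries and 3791 to 6101 in wild type libraries. The T cell, smooth muscle, fibroblast and nerve lists had no limma call, and at an unadjusted p under 0.05 they had 1 lower T cell marker and 1 lower nerve marker. The part of these marker levels, of sex and of transcript length and GC in the levels of the mitosis genes was not tested.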

How the data were processed

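RNA-seq values from 6 small intestine libraries were used, each assigned to its group by title. Named in the submitters' processing notes are the build mm10 with TopHat2 2.1.0, HTSeq 0.6.0 and DESeq2, the last without a version. No source used here gives the annotation or the strand setting. What the authors deposited for each symbol is treated as a score: it is whole, with low values missing or doubled, the mark of counts that were scaled by 1 factor in each library and then rounded. The factors were estimated from these gaps, with a largest error of 0.001 on 6 simulated libraries. Single reads could not be recovered in all libraries, so no count model was used.

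Limma 3.58.1 in R 4.3.3 was run on log2(value + 1) with an intensity trend, genotype as the only term and two-sided tests, on the 14686 genes that reached 10 in 3 or more libraries. P-values were adjusted by Benjamini-Hochberg over these genes, with a threshold of 0.05, 4 residual and 2.99 prior degrees of freedom. Fold changes are on this scale and understate those of low genes. The procedure was tested on simulated data.

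The members, lists and tests were chosen with earlier results of these data known. By rule, values are given for called members, for the called member of each role with the lowest p (with none called, the one with the highest mean), for the 3 members with the highest means and the 3 with the smallest fold changes, for the lowest mean and for members of opposite sign. In other lists the rule took up to 4 called genes in each direction. Some genes are not reported here. Further members, Wee1, Ccnd1, Fabp1 and Apoa4 were named after their values were seen. Coordinates, lengths and GC are from GENCODE vM21 (GRCm38), which matched all 54 members. Alternatives changed scaling, pseudocount, filter, trend, covariates, threshold and libraries.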

Additional observations from a re-analysis of the deposited data

How the results depend on the processing

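The count of members called higher, 13, stayed within 1.5 times of that with upper-quartile or trimmed-mean factors, other pseudocounts, other filters, no intensity trend, and the length and GC correction. Library totals gave 6 members, 415 genes higher, 984 lower and a member median of 0.24. An adjusted p under 0.1 gave 22 members, 1517 genes higher and 1330 lower. The segment score covariate gave 21 members, 2237 higher and 1898 lower. Leaving out wild type 3 and labelled knockout 1 together gave 30 members, 2033 higher and 1729 lower. That fit set female labelled knockout libraries against male wild type libraries, so sex and genotype cannot be told apart in it. The sex covariate gave 4 members, 281 higher and 178 lower, and the length and GC correction gave 1094 higher and 973 lower. The labels give same-numbered libraries no link beyond the number. Their deviations correlated at -0.37, 0.30 and -0.16 for numbers 1 to 3, and those of unlike-numbered pairs at -0.44 to 0.41. These values cannot settle whether the libraries were paired. With the replicate block, limma called 0 members, and 55 genes higher and 9 lower. In that fit 23 members were higher at an unadjusted p under 0.05, and the share of all genes at that level was not taken. With 1 library left out, members called ran from 0 to 22, genes higher from 26 to 1546 and genes lower from 1 to 1452, and the cause was not tested. No member was called lower under any alternative.

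Signs turned in members near 0. With library totals the log2 fold change was -0.015 for Anln, -0.14 for Cdc25b, -0.028 for Mki67, -0.048 for Nusap1 and -0.058 for Smc4, and with upper-quartile factors it was -0.020 for Cdc25b. With the segment score it was -0.015 for Cdc25b and 0.074 for Pttg1, with sex -0.041 for Anln and 0.034 for Pttg1, and with the length and GC correction -0.011 for Cdc25b, 0.35 for Cenpf and 0.086 for Ect2. Leaving out wild type 3 and labelled knockout 1 together gave 0.23 for Cenpf and 0.23 for Ect2. With 1 library left out, values ran from -0.11 to 0.50 for Anln, -0.039 to 0.16 for Cdc25b, -0.18 to 0.19 for Cenpf, -0.34 to 0.14 for Ect2, -0.087 to 0.40 for Mki67, -0.019 to 0.25 for Nusap1, -0.52 to 0.16 for Pttg1, -0.0078 to 0.41 for Smc2 and -0.023 to 0.27 for Smc4. The fit behind the 13 calls called no member below a 1.53-fold rise, whereas the length and GC correction and other alternatives did.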
